A study of Homo sapiens with 4 samples.

Results

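The eukaryotic translation initiation factors load messenger RNA and the initiator tRNA onto the ribosome, and their genes were described here in CAL27 cells with and without CCL20 overexpression. Members were all listed genes whose symbol starts with EIF followed by a digit from 1 to 6, without symbols that end in P and digits, antisense transcripts and Y-linked copies. The rule matched 83 symbols, left out 31 and kept 52 of the 29437 genes listed. By the digit of the symbol there were 4 eIF1 genes, 14 eIF2 genes, 15 eIF3 genes, 13 eIF4 genes and 6 eIF5 and eIF6 genes. The rule works on letters alone. It therefore kept EIF3J-DT, a divergent noncoding transcript beside EIF3J, and left out EIF4EBP1, EIF4EBP2 and EIF4EBP3, the coding genes of the eIF4E-binding proteins, which are described with the related genes.

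CAL27 cells are an established line from a human carcinoma of the mouth's squamous lining. CCL20 is a chemokine that cells secrete. The negative control group and the CCL20-overexpression group each had 2 libraries of polyadenylated RNA, and the labels say that a lentivirus (Genechem) was used to make the overexpressing cells and that cells were taken after 48 hours. The labels do not say what the control cells received, whether the line was a clone, or whether replicates were separate cultures, so p-values measure only the spread between these libraries, which may be technical. The comparison asks which genes differ in RNA level when CCL20 is overexpressed.

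Total counts lay between 13681862 and 17860695 per library. CCL20 itself was listed at 8.62 and 7.10 FPKM (counts scaled by the gene's exonic length and the library's total) in the control libraries and at 15.2 and 11.3 FPKM in the overexpression libraries, a log2 fold change of 0.95 ± 0.21 (SE, n = 2 per group, edgeR adjusted p = 0.0143), and of 0.06 with the mRNA length correction described below (adjusted p = 0.916). Of 7 squamous epithelial markers 6 reached a mean FPKM of 1, led by KRT5. Of the leukocyte markers with a row 0 of 3 did, of the fibroblast markers 1 of 5 and of the endothelial markers 1 of 3. The squamous markers summed to 686 and 716 FPKM in the control libraries and to 658 and 802 FPKM in the overexpression libraries, mostly KRT5 (362 to 521 FPKM). Within that list TP63 (35.2 and 31.9, then 23.0 and 14.3 FPKM) and CDH1 (49.3 and 48.1, then 35.4 and 25.96 FPKM) were lower in both overexpression libraries. EPCAM (96.8 and 92.8, then 160 and 132 FPKM), KRT17 (32.6 and 39.9, then 49.4 and 70.7 FPKM) and KRT14 (0.77 and 0.71, then 1.11 and 1.09 FPKM) were higher in both. KRT5 and KRT6A overlapped between groups. The other 3 marker lists each summed to at most 8.81 FPKM in any library.

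Initiation starts when eIF2, bound to GTP and the initiator tRNA, joins the small ribosomal subunit together with eIF1, eIF1A, eIF3 and eIF5. The eIF4F factors (the cap-binding protein eIF4E, the scaffold eIF4G and the helicase eIF4A) bring in the capped messenger RNA, and eIF5B joins the large subunit once the start codon is found. eIF2 is recharged by its exchange factor eIF2B, and stress kinases that phosphorylate eIF2 slow this step. eIF3 is the largest of the factors, an assembly of many subunits around a core of PCI and MPN domain proteins, and amounts of several of its subunits have been studied in tumours.

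Many messenger RNAs of the translation machinery begin with a terminal oligopyrimidine (TOP) motif, a C followed by a run of pyrimidines at the cap, through which mTORC1 and LARP1 control their translation. Starts annotated by RefSeq on GRCh38.p14 were found for 44 of the 52 members, and the search asked for a C at the first transcribed base followed by 4 C or T, on the gene's strand only. This start was present in 9 of 44 member genes (20.5%), in 643 of 8485 tested coding genes (7.58%) and in 1404 of all 27305 genes with an annotated start (5.14%). Counted per start, as some genes have several, it was present in 15.0% of 60 member starts and in 4.07% of all 35116 starts. By family it was present in 4 of 9 eIF3 genes, 3 of 12 eIF2 genes and 2 of 13 eIF4 genes. The eIF3 share rests on 9 of 15 eIF3 genes, among them the noncoding EIF3J-DT. No annotated start was found for EIF3A, EIF3CL, EIF3E, EIF3G, EIF3H and EIF3L. Those with it were EIF3D, EIF3F, EIF3K, EIF3M, EIF2A, EIF2D, EIF2S3, EIF4A2 and EIF4B. Below are the 4 eIF3 starts, shown because they include 3 of the eIF3 genes that rose, and the starts of EIF2S3 and EIF4B, which have the motif and did not pass the test. Each run gives 30 bases before the annotated start and 20 bases from it, on the gene's strand, with the matched bases in capitals.
EIF3K (chr19:38619158-38619207, plus strand): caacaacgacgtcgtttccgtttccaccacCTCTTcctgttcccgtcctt
EIF3F (chr11:7987307-7987356, plus strand): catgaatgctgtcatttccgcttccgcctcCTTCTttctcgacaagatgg
EIF3M (chr11:32583801-32583850, plus strand): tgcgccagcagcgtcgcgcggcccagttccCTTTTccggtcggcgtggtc
EIF3D (chr22:36529147-36529196, minus strand): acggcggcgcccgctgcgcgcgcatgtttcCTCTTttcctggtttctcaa
EIF2S3 (chrX:24054926-24054975, plus strand): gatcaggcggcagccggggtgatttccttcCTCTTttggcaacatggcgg
EIF4B (chr12:53006426-53006475, plus strand): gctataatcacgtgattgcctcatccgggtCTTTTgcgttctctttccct
In the test described next, the motif was present in 3 of the 12 genes with a start that were called higher, in 0 of 3 called lower and in 6 of 26 not called. A match describes these annotated starts, and the start used in CAL27 was not measured.

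Under TMM scaling, where the median of all genes was 0.00, more initiation factor genes were called higher than lower with CCL20 overexpression. With total counts alone 6 were called higher and 8 lower, beside 1251 and 2985 of all genes tested. On the TPM scale 1 was called higher and 13 lower, beside 502 and 4514. The members' median minus that of all genes was 0.27 on each of these scales. A change of scaling shifts all genes by about the same amount, so this agreement was fixed in advance. The eIF3 genes, the largest family here, held the most of those called higher under TMM scaling, and the counts in each family follow. Counts were tested with edgeR's quasi-likelihood test over the 12168 genes whose mean FPKM reached 1, with Benjamini-Hochberg adjustment over all of them and a threshold of 0.05. Of the 52 members 49 passed the filter, 16 were called higher and 4 lower, and their median log2 fold change was 0.28. Over all genes tested 16.5% were called higher and 15.7% lower, and the median was 0.00. Of 15 eIF3 genes 7 rose and 1 fell, with a median log2 fold change of 0.56. Of 14 eIF2 genes 4 rose and 2 fell (median 0.27), of 11 tested eIF4 genes 1 rose and 1 fell (median 0.03), of 4 eIF1 genes 2 rose (median 0.46), and of 5 tested eIF5 and eIF6 genes 2 rose (median 0.65). The median of all genes itself was at -0.21 with total counts alone and at -0.49 on the TPM scale, where 4 and 1 eIF3 genes were called higher and 3 and 3 lower. The directions below are those under TMM scaling. In a bulk sample, fewer cells of a type and less RNA per cell cannot be told apart.

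The number of calls depended on which library was left out, among all genes as among members, and the ranges are given in the closing section. The members' median log2 fold change was 0.25 with control replicate 1 left out and 0.28 with control replicate 2 left out. It was 0.23 with overexpression replicate 1 left out and 0.33 with overexpression replicate 2 left out. Over all genes these medians were 0.01, 0.01, -0.01 and 0.00. The spread between the overexpression libraries was wider, with a chi-square per tested gene of 51.8 against 8.50 in the control pair, and a fit that keeps 1 control library rests on that pair.

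**Figure D1:**
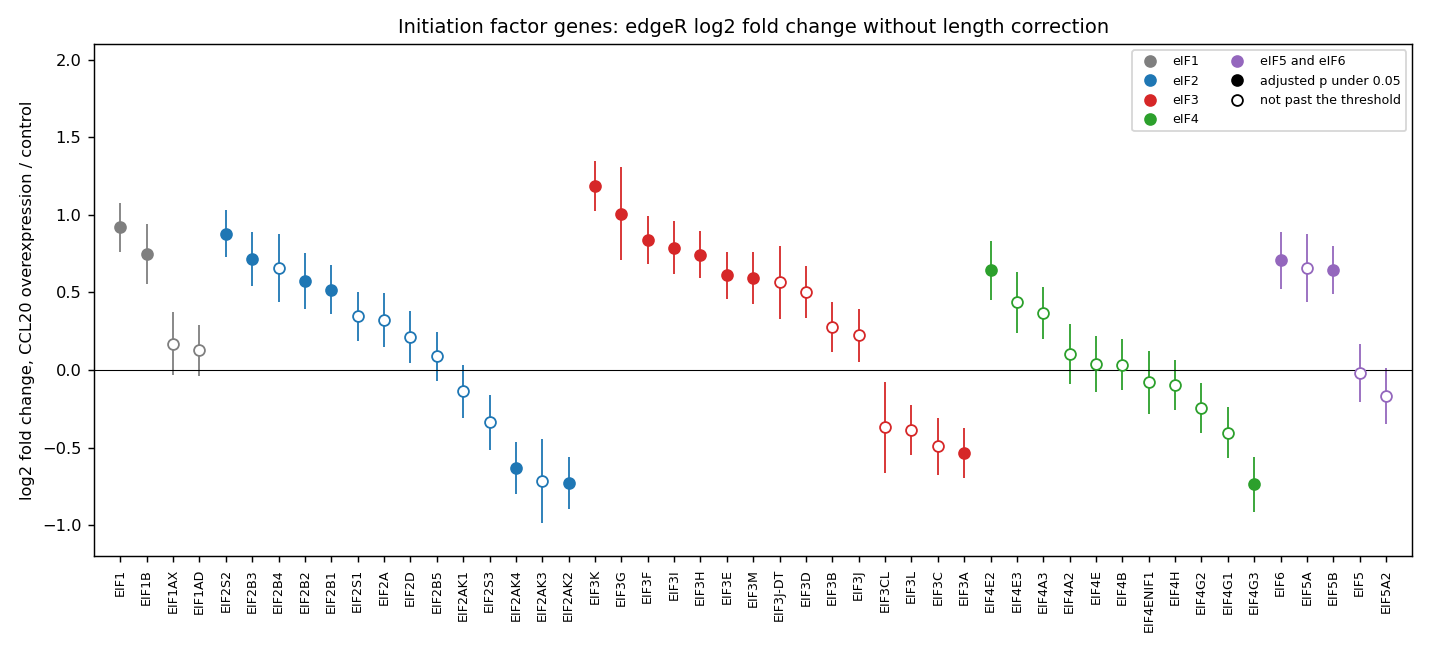
Log2 fold change (overexpression over control) with its SE for each of the 49 tested initiation factor genes, ordered within families, without length correction, with filled points where the edgeR adjusted p is under 0.05 (n = 2 per group). The eIF3 genes run from EIF3K at 1.19 to EIF3A at -0.54, while 1 eIF4 gene was called higher and 1 lower.

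Across all genes the direction of change ran with transcript length. Over 10572 tested coding genes, Spearman's rho between log2 fold change and annotated mRNA length was -0.73, and over the 48 coding members it was -0.54 (a description over genes of the same libraries). The members called higher had a median mRNA length of 1994.5 nt, those called lower 5686.25 nt and those not called 2934.25 nt. The fit was therefore repeated with each library's length trend taken out as an offset. Under mRNA length 9 of 48 members were called higher and 2 lower, where 3.63% of all genes were called higher and 3.19% lower. Under coding length, a correction chosen after the data were seen, 4 of 48 were called higher and 1 lower, where 3.12% of all genes were called higher and 4.14% lower. The plot of called genes under these fits shows which members each correction moved. EIF5B was called in all 4 length corrections run, EIF1, EIF2B2, EIF2S2, EIF3F, EIF3H and EIF3M in 3, EIF3K in 2, and EIF3E and EIF4E2 in 1. Of the 16 called higher 6 were called in none of them, and so were all 4 called lower. What makes direction run with length in these libraries was not tested.

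**Figure D2:**
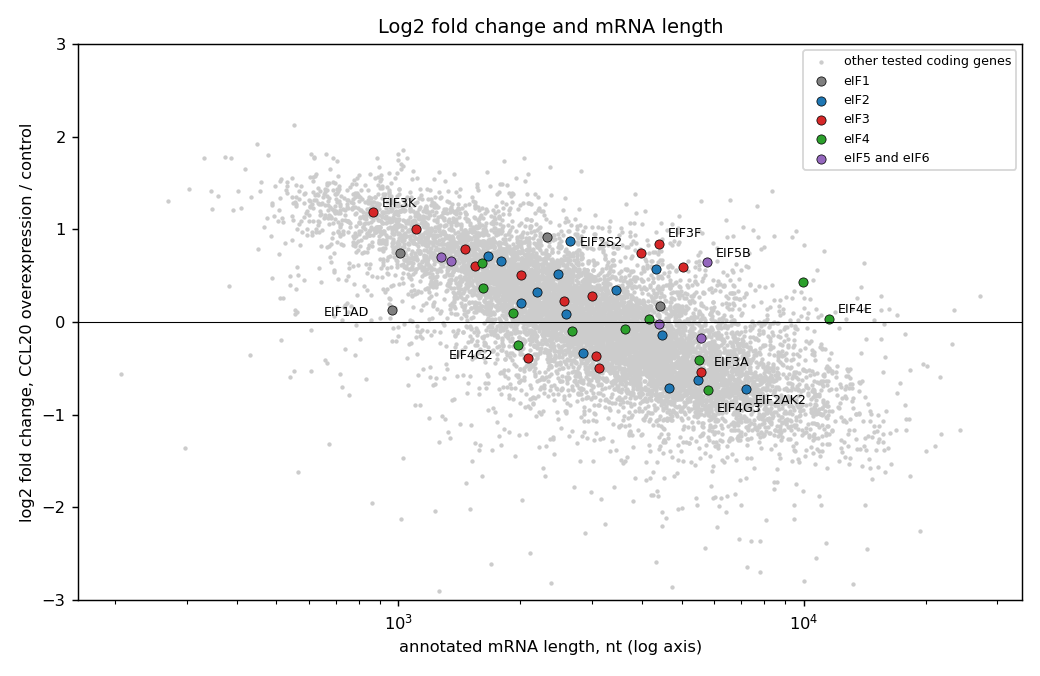
Log2 fold change (overexpression over control) against annotated mRNA length (log axis) for 48 coding members, coloured by family, over the other tested coding genes in grey (genes with values outside the range of the axis are not drawn). Values decline with length (Spearman's rho -0.73 over the coding genes), and EIF5B, EIF3F and EIF2S2 lie above that trend.

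**Figure D3:**
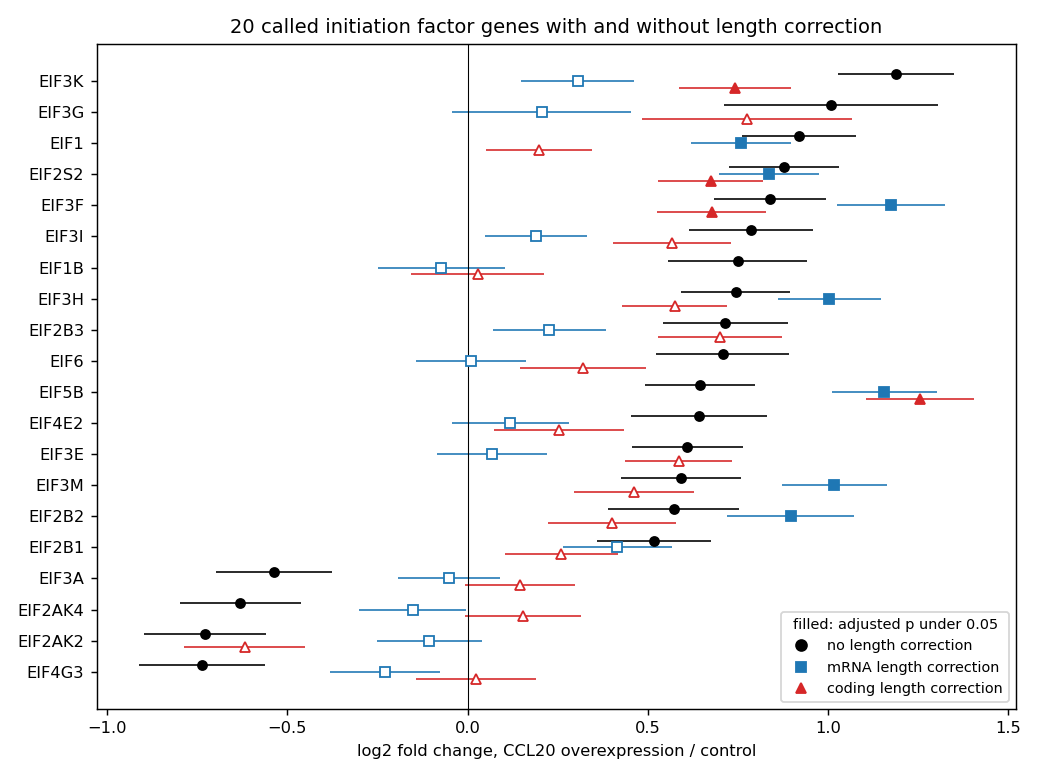
Log2 fold change with its SE for the 20 called members without length correction (circles), with the mRNA length correction (squares) and with the coding length correction (triangles), filled where the edgeR adjusted p is under 0.05. EIF2S2, EIF3F and EIF5B are filled in all 3 fits, while EIF3A, EIF2AK4 and EIF4G3 are filled only without correction and lie near 0 with coding length.

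Among eIF3 subunits the small core subunit rose and the large scaffold fell. EIF3K (ENSG00000178982, GRCh38 chr19:38619082-38636955), the smallest subunit of the PCI and MPN core, was at 73.4 and 64.0 FPKM in the control libraries and at 139 and 132 FPKM in the overexpression libraries. Both overexpression libraries were far above both controls, and the log2 fold change was 1.19 ± 0.16 (edgeR adjusted p = 0.00433). EIF3K has an annotated mRNA of 864 nt, the shortest of the tested members, and its log2 fold change was 0.31 with the mRNA length correction (edgeR adjusted p = 0.282) and 0.74 with the coding length correction (adjusted p = 0.0399). EIF3A (ENSG00000107581, chr10:119033670-119080823), the largest subunit, which holds the complex together, was at 68.4 and 69.8 FPKM in the control libraries and at 46.4 and 36.6 FPKM in the overexpression libraries. The groups did not overlap, and the log2 fold change was -0.54 ± 0.16 (edgeR adjusted p = 0.0372). With length corrected it was -0.05 by mRNA length and 0.15 by coding length, neither past the threshold. The FPKM ratio of EIF3K to EIF3A was 1.07 and 0.916 in the controls, against 3.01 and 3.60 with overexpression.

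The MPN domain pair EIF3F and EIF3H rose together. EIF3F (ENSG00000175390, chr11:7970251-8001862) was at 25.0 and 23.3 FPKM in the control libraries and at 37.7 and 37.2 FPKM in the overexpression libraries, a log2 fold change of 0.84 ± 0.16 (edgeR adjusted p = 0.00769). It was called higher with mRNA length corrected (1.17, adjusted p = 0.0092) and with coding length corrected (0.68, adjusted p = 0.0412). Its 2 annotated principal transcripts differ widely in length, from 1254 to 7540 nt, and with the shortest one as its length it was not called. EIF3H was at 44.4 and 45.4 FPKM in the control libraries and at 67.1 and 63.5 FPKM in the overexpression libraries (log2 fold change 0.74 ± 0.15, edgeR adjusted p = 0.0103). Its corrected values were 1.003 (mRNA length, adjusted p = 0.0116) and 0.57 (coding length, adjusted p = 0.0551). For both genes the overexpression libraries lay close together and clear of the controls.

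Of the other PCI subunits, EIF3E and EIF3M rose. EIF3M went from 38.6 and 37.8 FPKM to 56.9 and 43.6 FPKM, with a log2 fold change of 0.59 (edgeR adjusted p = 0.0296) and of 1.02 with mRNA length corrected (adjusted p = 0.0116). EIF3E went from 49.7 and 47.0 FPKM to 68.0 and 60.3 FPKM, with a log2 fold change of 0.61 (edgeR adjusted p = 0.0203) and of 0.07 with mRNA length corrected. EIF3L differed in direction, with 39.7 and 35.4 FPKM in the control libraries and 25.3 and 24.6 FPKM in the overexpression libraries. Its log2 fold change of -0.38 did not pass (edgeR adjusted p = 0.0995), but with mRNA length corrected it was called lower (-0.65, adjusted p = 0.0449). Exons of other genes overlap 44.8% of the EIF3L mRNA, so its count depends on how such reads were assigned. EIF3C and its copy EIF3CL share 95.1% and 97.1% of their 100-base stretches with other genes' transcripts, and their values, from 2.73 to 4.88 FPKM and from 1.48 to 2.91 FPKM, are uncertain for that reason.

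Of the subunits outside that core, EIF3G and EIF3I rose. EIF3I, a WD-repeat subunit, was the highest eIF3 gene in each of the 4 libraries, at 214 and 230 FPKM in the control libraries and 308 and 354 FPKM in the overexpression libraries (log2 fold change 0.79 ± 0.17, edgeR adjusted p = 0.0129). EIF3G, an RNA-binding subunit, was at 29.1 and 33.4 FPKM in the control libraries and at 37.8 and 70.1 FPKM in the overexpression libraries. The rise of EIF3G thus lay mostly in overexpression replicate 2: its log2 fold change was 1.01 ± 0.30 (edgeR adjusted p = 0.0348), and 0.43 without that library. EIF3G and EIF3I were called in none of the length corrections. EIF3D, which can bind caps itself, missed the threshold at 0.51 (edgeR adjusted p = 0.0502), with all overexpression values above all control values. EIF3B had a log2 fold change of 0.28, EIF3J of 0.22 and the noncoding EIF3J-DT of 0.56, none past the threshold. Without EIF3J-DT the eIF3 median was 0.55.

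**Figure D4:**
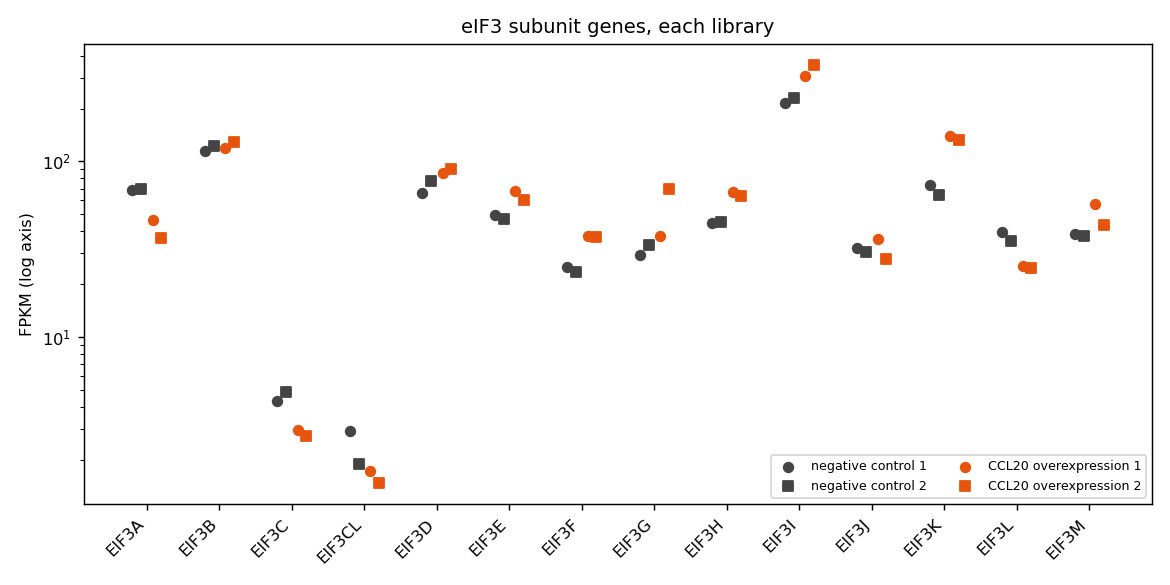
FPKM (log axis) of the 14 coding eIF3 genes in each library, with circles for replicate 1 and squares for replicate 2, control in grey and overexpression in orange. EIF3K, EIF3F, EIF3H and EIF3I lie higher in both overexpression libraries, EIF3A, EIF3C and EIF3L lie lower in both, and EIF3G is spread between the overexpression libraries.

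On the FPKM scale, which sets genes side by side per length, eIF3 genes summed to 805 and 825 FPKM in the control libraries and to 1035 and 1077 FPKM in the overexpression libraries. The eIF2 genes summed to 437 and 436 FPKM, then 495 and 449 FPKM, and the eIF4 genes summed to 599 and 621 FPKM, then 507 and 480 FPKM. Deposited FPKM is scaled by the library total. Divided by the TMM factors, a scaling added after the data were seen, the eIF3 sums were 746 and 769, then 1074 and 1201, and the eIF2 sums were 405 and 406, then 514 and 501. The eIF4 sums became 555 and 579, then 526 and 536. On both scalings the eIF3 sum was higher in both overexpression libraries, while the gap of the eIF4 sum was narrower with TMM factors, and the sums carry no length correction beyond exonic length. A sum leans on its most abundant genes. EIF3I alone was at 214 and 230 FPKM in the control libraries and at 308 and 354 FPKM in the overexpression libraries. In contrast EIF3A, EIF3C and EIF3L were lower in both overexpression libraries. The median log2(FPKM + 1) of eIF3 genes exceeded that of eIF2 genes by 1.27 and 1.14 in the control libraries and by 1.50 and 1.34 in the overexpression libraries. The eIF3 median differed from the eIF4 median by -0.02 and -0.30 in the control libraries and by -0.02 and 0.09 in the overexpression libraries, so those groups overlapped. No test was run on these sums and medians. All members together held 1.14% and 1.16% of counts in the controls, against 1.21% and 1.18% with overexpression.

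The family contrast in medians narrowed with mRNA length corrected and was much the same with coding length corrected. Fewer eIF3 and eIF2 genes were called under both. Over all genes 3.63% were called higher and 3.19% lower with mRNA length corrected, and 3.12% and 4.14% with coding length corrected. With mRNA length corrected 3 of 14 eIF3 genes rose and 1 fell (median 0.19), 2 of 14 eIF2 genes rose (median 0.16) and 2 of 11 eIF4 genes rose (median 0.09). With coding length corrected 2 eIF3 genes rose (median 0.57), 1 eIF2 gene rose (median 0.31) and 0 eIF4 genes were called by edgeR (median 0.02; 1 eIF4 gene had an unadjusted p under 0.05). The difference in log2 fold change between families was not tested.

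In the eIF2 group the subunits moved unequally. EIF2S2 (eIF2 beta, ENSG00000125977, chr20:34088298-34112332) was at 111 and 112 FPKM in the control libraries and at 181 and 174 FPKM in the overexpression libraries, a log2 fold change of 0.88 ± 0.15 (edgeR adjusted p = 0.0064). It was called higher with mRNA length corrected (0.84, adjusted p = 0.0157) and with coding length corrected (0.67, adjusted p = 0.0403), and 14.8% of its 100-base stretches are shared with other genes. EIF2S3 (eIF2 gamma, which holds GTP and the tRNA) was at 90.3 and 86.9 FPKM, then 70.9 and 51.5 FPKM, and EIF2S1 (eIF2 alpha, the subunit the kinases phosphorylate) at 38.9 and 38.1 FPKM, then 45.9 and 39.1 FPKM. Neither passed, with log2 fold changes of -0.34 and 0.35 (edgeR adjusted p = 0.172 and 0.12). The FPKM ratio of EIF2S2 to EIF2S3 was 1.23 and 1.28 in the controls, against 2.55 and 3.37 with overexpression.

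Of the 5 eIF2B exchange factor subunits 3 rose, with a median log2 fold change of 0.57 over all 5, beside 16.5% of all genes called higher. With total counts alone, on the TPM scale and with limma on log2(FPKM + 1) or log2(FPKM + 0.1), 0 of the 5 were called. Of all 12168 genes 1251, 502, 1245 and 1176 were called higher in these fits. DESeq2 called 4 of the 5 higher, beside 2075 of all genes. EIF2B3 (gamma) went from 15.9 and 18.3 FPKM to 23.4 and 25.2 FPKM, a log2 fold change of 0.72 (edgeR adjusted p = 0.0183). EIF2B1 (alpha) had a log2 fold change of 0.52 and EIF2B2 (beta) of 0.57, while EIF2B4 (delta) at 0.66 missed the threshold (edgeR adjusted p = 0.0513) and EIF2B5 (epsilon, the catalytic subunit) was at 0.09. With mRNA length corrected EIF2B2 was called (0.90, edgeR adjusted p = 0.0261), while EIF2B3 was at 0.23 (adjusted p = 0.425) and EIF2B1 at 0.42 (adjusted p = 0.143). EIF2B3 and EIF2B1 were called in none of the 4 length corrections. With coding length corrected EIF2B2 was at 0.40 and was not called (edgeR adjusted p = 0.164), and exons of other genes overlap 29.3% of its mRNA.

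The kinases of eIF2 had log2 fold changes below 0 in 4 of 4, with a median of -0.67, and 2 were called lower. Over all 12168 genes tested 6072 were below 0 and 15.7% were called lower. EIF2AK2 (PKR, which senses double-stranded RNA) was at 15.8 and 15.1 FPKM in the control libraries and at 9.10 and 7.14 FPKM in the overexpression libraries (log2 fold change -0.73 ± 0.17, edgeR adjusted p = 0.0157). EIF2AK4 (GCN2, which senses uncharged tRNA) was at 10.2 and 9.70 FPKM, then 6.24 and 4.94 FPKM (log2 fold change -0.63 ± 0.17, edgeR adjusted p = 0.0251). Both overexpression libraries were below both controls for each gene. EIF2AK3 (PERK) had a log2 fold change of -0.72 and EIF2AK1 (HRI) of -0.14, neither past the threshold. With mRNA or coding length corrected edgeR called 0 of the 4 kinases, with 0 and 1 at an unadjusted p under 0.05. In these fits 3.19% and 4.14% of all genes were called lower. EIF2AK2 was at -0.11 by mRNA length and -0.62 by coding length (adjusted p = 0.0607), and EIF2AK4 at -0.15 and 0.15. EIF2A and EIF2D, which can deliver tRNA without eIF2, had log2 fold changes of 0.32 and 0.21 and did not pass.

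Of the start codon selection factors EIF1 and EIF1B rose. EIF1, the guard of start codon choice, was at 101 and 104 FPKM in the control libraries and at 164 and 171 FPKM in the overexpression libraries (log2 fold change 0.92 ± 0.16, edgeR adjusted p = 0.00625). It was called with mRNA length corrected (0.76, adjusted p = 0.0202) and not with coding length corrected (0.20). Its paralog EIF1B, at 8.64 and 8.20 FPKM, then 11.6 and 12.8 FPKM, had a log2 fold change of 0.75 (edgeR adjusted p = 0.0219) and of -0.07 with mRNA length corrected. EIF1AX, an eIF1A gene, and EIF1AD, named for its eIF1A-like domain, overlapped between groups, at 0.17 and 0.13. EIF1AD was called lower with mRNA length corrected (-0.71, edgeR adjusted p = 0.0457).

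In the cap-binding group EIF4E2 rose and EIF4G3 fell. EIF4E2, a cap-binding protein known as a translational repressor, was at 9.55 and 9.06 FPKM in the control libraries and at 11.2 and 13.9 FPKM in the overexpression libraries (log2 fold change 0.64 ± 0.19, edgeR adjusted p = 0.0345), and exons of other genes overlap 33.7% of its mRNA. With length corrected EIF4E2 was at 0.12 (mRNA, edgeR adjusted p = 0.706) and 0.25 (coding, adjusted p = 0.358). EIF4G3, one of the eIF4G scaffolds, was at 11.3 and 10.8 FPKM, then 6.58 and 4.97 FPKM (log2 fold change -0.74 ± 0.18, edgeR adjusted p = 0.0169). With length corrected EIF4G3 was at -0.23 (mRNA) and 0.02 (coding), neither past the threshold. The major scaffold EIF4G1 was at 103 and 105 FPKM in the control libraries and 63.8 and 72.0 FPKM in the overexpression libraries, lower in both, with a log2 fold change of -0.41 that did not pass (edgeR adjusted p = 0.0904).

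The cap-binding protein gene EIF4E lay at 3.59 and 3.68 FPKM in the control libraries and at 3.75 and 2.75 FPKM in the overexpression libraries, overlapping, with a log2 fold change of 0.04. Its annotated mRNA is the longest among the tested members at 11523 nt, and with mRNA length corrected it was called higher (0.83, edgeR adjusted p = 0.0246). By coding length it was at -0.41, so its direction rested on which length was used. EIF4E3 was at 0.43 uncorrected, 1.19 by mRNA length (edgeR adjusted p = 0.0141) and 0.01 by coding length. The other 7 tested eIF4 genes did not pass in any of these 3 fits. They were the helicase genes EIF4A2 (0.10) and EIF4A3 (0.37, known in the exon junction complex), the helicase cofactors EIF4B (0.03) and EIF4H (-0.10), the scaffolds EIF4G1 (-0.41) and EIF4G2 (-0.24), and the eIF4E transporter EIF4ENIF1 (-0.08).

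EIF4A1, which encodes the main helicase, was below the filter with 97 and 124 counts in the control libraries and 53 and 33 counts in the overexpression libraries. Exons of other genes overlap 100% of its mRNA, and all of its 100-base stretches are shared with other genes' transcripts, so its counts depend on how such reads were assigned. Without a filter its log2 fold change was -1.13 (edgeR adjusted p = 0.00363). EIF4E1B had 0, 0, 2 and 2 counts and EIF5AL1 6, 7, 6 and 10 counts, and neither passed without a filter (edgeR adjusted p = 0.493 and 0.747).

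EIF5B, the GTPase that joins the ribosomal subunits, held its call through every length correction run, all under TMM scaling. With total counts alone and with limma on log2(FPKM + 1) or log2(FPKM + 0.1), 0 of 5 tested eIF5 and eIF6 genes were called. Of all 12168 genes 1251, 1245 and 1176 were called higher in these fits. On the TPM scale 0 of the 5 were called higher, beside 502 of all genes. DESeq2 called 3 of the 5 higher, beside 2075 of all genes. EIF5B (ENSG00000158417, chr2:99337353-99401326) was at 32.6 and 33.9 FPKM in the control libraries and at 47.5 and 42.8 FPKM in the overexpression libraries. The groups did not overlap, and the log2 fold change was 0.65 ± 0.15 (edgeR adjusted p = 0.0168). Its annotated mRNA has 5777 nt, above the median of the members called lower (5686.25 nt), and it stood at 1.16 with mRNA length corrected (adjusted p = 0.00911) and at 1.26 with coding length corrected (adjusted p = 0.0191). Exons of other genes overlap 14.7% of the EIF5B mRNA.

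EIF6, which keeps the large subunit from joining too early, rose from 98.5 and 99.3 FPKM to 125 and 154 FPKM (log2 fold change 0.71 ± 0.18, edgeR adjusted p = 0.0231), and was at 0.01 with mRNA length corrected. EIF5A, a hypusine-carrying factor that helps the ribosome through difficult stretches, was at 177 and 208 FPKM, then 218 and 306 FPKM, and missed the threshold (0.66, edgeR adjusted p = 0.0513). Its paralog EIF5A2 was at 8.87 and 7.54 FPKM, then 6.85 and 5.85 FPKM, with a log2 fold change of -0.17. With coding length corrected EIF5A2 was called lower (-0.77, edgeR adjusted p = 0.0441). EIF5, which triggers GTP hydrolysis on eIF2, overlapped between groups at -0.02.

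Related translation genes were taken from 5 lists of 50 genes, of which 45 passed the filter, 10 rose and 7 fell, beside 16.5% higher and 15.7% lower over all genes. Cap regulation and mTORC1 genes included 3 that rose and 5 that fell of 14 tested. EIF4EBP1, which holds eIF4E away from eIF4G, was at 39.8 and 44.9 FPKM in the control libraries and at 74.7 and 99.9 FPKM in the overexpression libraries (log2 fold change 1.26 ± 0.21, edgeR adjusted p = 0.00604). EIF4EBP2 was at 29.6 and 28.5 FPKM, then 16.9 and 13.8 FPKM (log2 fold change -0.72 ± 0.16, edgeR adjusted p = 0.0146). These paralogs moved in opposite directions, and the FPKM ratio of EIF4EBP1 to EIF4EBP2 was 1.35 and 1.57 in the controls, against 4.41 and 7.24 with overexpression. Their annotated mRNAs are 1020 and 7257 nt long, and with mRNA length corrected neither was called (0.43 and -0.09). With coding length corrected EIF4EBP2 was called lower (-1.41, edgeR adjusted p = 0.0191) and EIF4EBP1 was not called (0.54, adjusted p = 0.114). With exonic length corrected EIF4EBP1 was called higher (0.80, edgeR adjusted p = 0.0266) and EIF4EBP2 was not called (-0.41, adjusted p = 0.0971).

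MLST8 (0.85) and RHEB (0.72) rose, and MTOR (-0.86), RPTOR (-0.79), LARP1 (-0.72) and TSC1 (-0.57) fell, on the log2 fold change scale. The counts in the next lists stand beside 16.5% of all genes called higher and 15.7% lower. Among other partners of initiation 2 of 13 rose and 1 fell. Those that rose were MCTS1 (0.89), which recycles tRNA with DENR, and DOHH (0.65), the enzyme that completes hypusine on eIF5A. The helicase DDX3X (-0.62) fell. Among elongation and release genes 2 of 8 rose, EEF1B2 (1.03) and EEF1A1 (0.57), and 1 fell, EEF1D (-0.67). Among integrated stress response genes, which act downstream of eIF2 phosphorylation, 2 of 8 rose. ATF4 was at 83.6 and 86.8 FPKM, then 118 and 110 FPKM (0.63, edgeR adjusted p = 0.0187), and DDIT3 at 4.53 and 5.18 FPKM, then 13.8 and 11.02 FPKM (1.55, edgeR adjusted p = 0.00456). Of the 2 mitochondrial initiation genes MTIF3 rose (0.78). With mRNA length corrected edgeR called 0 related genes higher and 1 lower (9 had an unadjusted p under 0.05), EEF1D (-0.85, edgeR adjusted p = 0.0197). Over all genes 3.63% were called higher and 3.19% lower in that fit. With coding length corrected EEF1A1 (0.57) and DDIT3 (0.99) were called higher, as were 3.12% of all genes.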

How the data were processed

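Polyadenylated RNA of 4 CAL27 libraries, 2 per group, was sequenced. Per the submitters' processing notes HISAT2 and HTSeq 0.13.5 were used with the build GRCh38. No source used here gives the annotation or the strand setting, so reads of a gene and of another overlapping it, on either strand, cannot be separated. The deposited counts are raw whole numbers. Deposited FPKM values equal the count divided by exonic length and library total. All 29437 identifiers matched GENCODE 29, used for positions and lengths.

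Counts of genes whose mean FPKM reached 1 were tested with edgeR 4.0.16 (R 4.3.3, quasi-likelihood, TMM, two-sided, Benjamini-Hochberg). Each SE is the log2 fold change over the square root of F. The length correction fits a natural spline (5 degrees of freedom) to each library's log2 CPM deviations (prior count 2) and uses it as an offset. mRNA length is the median of the principal transcripts, and coding length the longest principal coding sequence. The corrections by coding length and by the shortest principal transcript were chosen after seeing the data. The members and lists were chosen with earlier results of these data known. All tested members may be named, and related genes where they passed the threshold. Code was tested on simulated data. DESeq2 1.42.0 and limma 3.58.1 served as alternatives, as did other scalings, other filters, a replicate block and fits without each library. Overlap with other genes counts exons on either strand.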

Additional observations from a re-analysis of the deposited data

How the results depend on the processing

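All genes gave 3915 calls, which fell to 721 (mRNA length), 768 (coding length), 810 (shortest mRNA) and 1932 (exonic length), and ranged from 650 to 7579 with 1 library left out. Members gave 20 calls, and 13 with limma on log2(FPKM + 0.1), 11, 5, 9 and 13 under the same 4 length corrections, and 0 to 36 with 1 library left out. The eIF3 genes gave 8 calls, then 4 on the TPM scale, 4 (mRNA), 2 (coding) and 2 (shortest), and 0 to 13 with 1 library left out. The eIF2 genes gave 6, then 3 with limma at either pseudocount, 2 (mRNA), 1 (coding), 2 (shortest) and 2 (exonic), and 0 to 11 with 1 library left out. The eIF4 genes gave 2, then 4 (TPM scale), 0 (coding), and 0 to 6 with 1 library left out. Related genes gave 17, then 1 (mRNA), 3 (coding), 1 (shortest) and 4 (exonic), and 1 to 31 with 1 library left out. The mRNA, coding and shortest mRNA corrections test 10572 coding genes, and the exonic one all 12168. Where 1 library was left out, the remaining one was assumed to vary like the other group's pair. The sign turned in 11 of 48 members by mRNA length, 11 by coding length and 10 by the shortest mRNA, and in 6 of 49 by exonic length. Of these, the ones called in either fit were EIF1AD (-0.71 by mRNA length, -0.70 by the shortest mRNA), EIF1B (-0.073 by mRNA length), EIF2AK4 (0.15), EIF3A (0.15) and EIF4G3 (0.024), the last 3 by coding length. The cause was not tested.

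Scaling moved the split of calls. With total counts alone 1251 of all genes were higher and 2985 lower (members 6 and 8), and on the TPM scale 502 and 4514 (members 1 and 13). The all-gene median shifted to -0.21 and -0.49. Relative to that median the eIF3 median was 0.57 on both scales and 0.56 with TMM. As scaling shifts all genes by about the same amount, this agreement was fixed in advance. With limma on log2(FPKM + 1) the split of all genes was 1245 and 2608 (members 7 and 7). With log2(FPKM + 0.1) it was 1176 and 2438 (members 6 and 7). The exonic length correction split all genes 1211 and 721.

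Replicate numbers are shared between the groups, but the labels do not say that they mark a shared batch, and the deviations of same-numbered libraries correlated at 0.27. With the replicate block 26 of 49 tested members were called, 19 higher and 7 lower. Of all 12168 genes tested 5758 were called in that fit, 2840 higher and 2918 lower.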

Other observations

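EIF5AP4, a processed pseudogene of EIF5A that the rule on symbols left out, was listed at 70.9 and 60.6 FPKM in the control libraries and at 75.2 and 54.7 FPKM in the overexpression libraries, overlapping between groups. Separately, of the 100-base stretches of the EIF5A mRNA 13.0% are shared with transcripts of other genes. The gene was chosen after its values were seen.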
